A study of Mus musculus with 6 samples.

Results

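The p53 pathway was described through 35 genes: 10 regulators of p53 and 25 genes that p53 is known to switch on. The members were given by symbol, and every array probe whose accession maps to one of those symbols was taken. The array carried 46 such probes. Of these, 41 were well above local background in the sample channel on at least 3 of 6 arrays, out of 29811 probes that passed that filter in all. In genes, 34 of the 35 members could be tested, out of 14755 genes. The member left out was Chek1, the checkpoint kinase that acts below Atr, whose only probe passed on 1 of 3 KO arrays and on no WT array.

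p53, encoded by Trp53 in the mouse, is a transcription factor that is held at a low level by the ubiquitin ligase Mdm2 and its partner Mdm4. Kinases that sense DNA damage phosphorylate p53 and release it from Mdm2, after which it binds its target genes, among them genes of cell-cycle arrest, apoptosis and DNA repair and its own inhibitor Mdm2. Its activity is set largely at the level of the protein, which an RNA array does not measure. In the developing kidney, p53 is known both for restraining growth and for taking part in the expression of differentiation genes of the nephron and collecting duct.

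The series compared collecting duct cells sorted from newborn kidneys with and without Bdkrb2, the gene of the bradykinin B2 receptor, after exposure to high salt in gestation. The KO group held 3 samples from Hoxb7cre+ pups with floxed Bdkrb2 on both alleles and the R26RtdTomato reporter. The WT group held 3 samples from pups that likewise carried Hoxb7cre+ and R26RtdTomato but had Bdkrb2+/+. All animals were C57BL/6 and on food with 5% sodium, and the cells were sorted on GFP and dsRED at postnatal day 1. Hoxb7 drives Cre in the ureteric bud and the collecting duct that forms from it, so the deletion is directed to that lineage. The matings given in the labels were between floxed parents, which do not yield WT pups, so litter and genotype cannot be told apart. How many pups went into a sample was not given, and the p-values measure only the spread between these samples.

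Each array carried the sample's RNA in Cy5 and the RNA of WT replicate 1 in Cy3, so every value below is a log2 ratio to that one WT RNA. The array of WT replicate 1 set its RNA against itself. The ratios of the 34 members on that array had a median size of 0.085, against 0.10 over all genes, and the largest was 0.40 for Tnfrsf10b. A ratio is comparable between arrays for one gene but not between genes, and since no dyes were swapped, gene-specific dye bias remains in single ratios but not in KO minus WT. The differences were tested with limma over all 14755 genes, with Benjamini-Hochberg adjustment, a threshold of 0.05 on the adjusted p and the brightest passing probe of each gene. The words rose and fell are used only of genes past that threshold, and ± gives the standard error of a difference from 3 KO and 3 WT samples.

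The single Bdkrb2 probe stood well above background on 0 of 6 arrays, with a Cy5 signal of 0.972 to 1.11 times the local background, so the deletion could not be checked. Markers of the labelled cell type were present: all 15 collecting duct markers tested were well above background on every array. All 15 were nevertheless lower in KO samples, with a median difference of -2.04 and a range of -2.70 to -0.997. In the array medians of that list, KO samples lay between -2.07 and -1.84 and WT samples between -0.19 and 0.075. Of 9 nephron progenitor markers 8 rose (median 2.43), with array medians of 1.63 to 2.30 in KO samples and -0.16 to 0.12 in WT samples. Of 10 stroma markers 8 rose (median 1.87), with array medians of 1.12 to 1.58 in KO samples and -0.85 to 0.12 in WT samples. Endothelial markers fell in 7 of 8 (median -1.03), erythroid markers in 4 of 4 (median -2.22) and proximal tubule markers in 2 of 6 (median -0.35), while leukocyte markers rose in 5 of 7 and fell in 1 (median 0.99). Erythroid array medians were -2.755 to -2.355 in KO samples, against -0.11, -1.30 and 0.21 in WT replicates 1 to 3. Those of the proximal tubule were -0.92 to -0.53 in KO samples, against 0.14, -0.95 and -0.15. WT replicate 2 thus lay below every KO sample in the proximal tubule list. Of all genes, 35.3% were called, 15.3% higher and 20% lower. The proximal tubule share of 33.3% called lay near that background. No marker of these lists was below background on all WT arrays. The part of these markers in the differences of the p53 pathway was not tested, and in bulk RNA fewer cells of a type and less RNA per cell cannot be told apart. The 3 KO arrays and WT replicate 1 lay in one row of the slide and the other two WT arrays in the second row. A fit with the row as a block therefore sets KO essentially against WT replicate 1.

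Of the 34 members tested, 6 rose and 8 fell in KO cells, which is 41.2% called, against 35.3% of all genes. The background was 15.3% for genes called higher and 20% for genes called lower. The median difference of the members was -0.15, against -0.019 over all genes, and the median size of their differences was 0.27, against 0.28 over all genes. KO and WT values did not overlap in 17 members, 6 with KO above and 11 with KO below, where 52.1% of all genes did not overlap, 23.9% with KO above and 28.2% with KO below. A difference of at least 1 on the log2 scale was found in 3 of 34 members (8.82%), against 8.69% of all genes. By count and size the members thus lay near the background of this comparison. By role, 2 of 9 regulators rose and none fell, and of the 25 targets 4 rose and 8 fell (48% called, median -0.24). The difference was negative in 21 of the 25 targets, against 7648 of all 14755 genes. In 11 of the 25 every KO value lay below every WT value. These signs depended on the scaling: under median centring 8 of 11 apoptosis targets and 4 of 5 repair targets were positive. With the slide row as a block, 1 member was called higher (Phlda3) and 3 lower (Cdkn1a, Perp and Pmaip1), beside 730 and 1474 of all genes. Without WT replicate 3, 3 members were called higher and 4 lower, beside 1269 and 1974 of all genes, and without KO replicate 2 the members' counts were 4 and 4. When arrays were centred on their medians without loess, the median over all genes was 0.24 and over the members 0.16, and 74.3% of all calls were higher ones, against 43.4% under loess. The members called were then 6 higher and 2 lower.

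**Figure D1:**
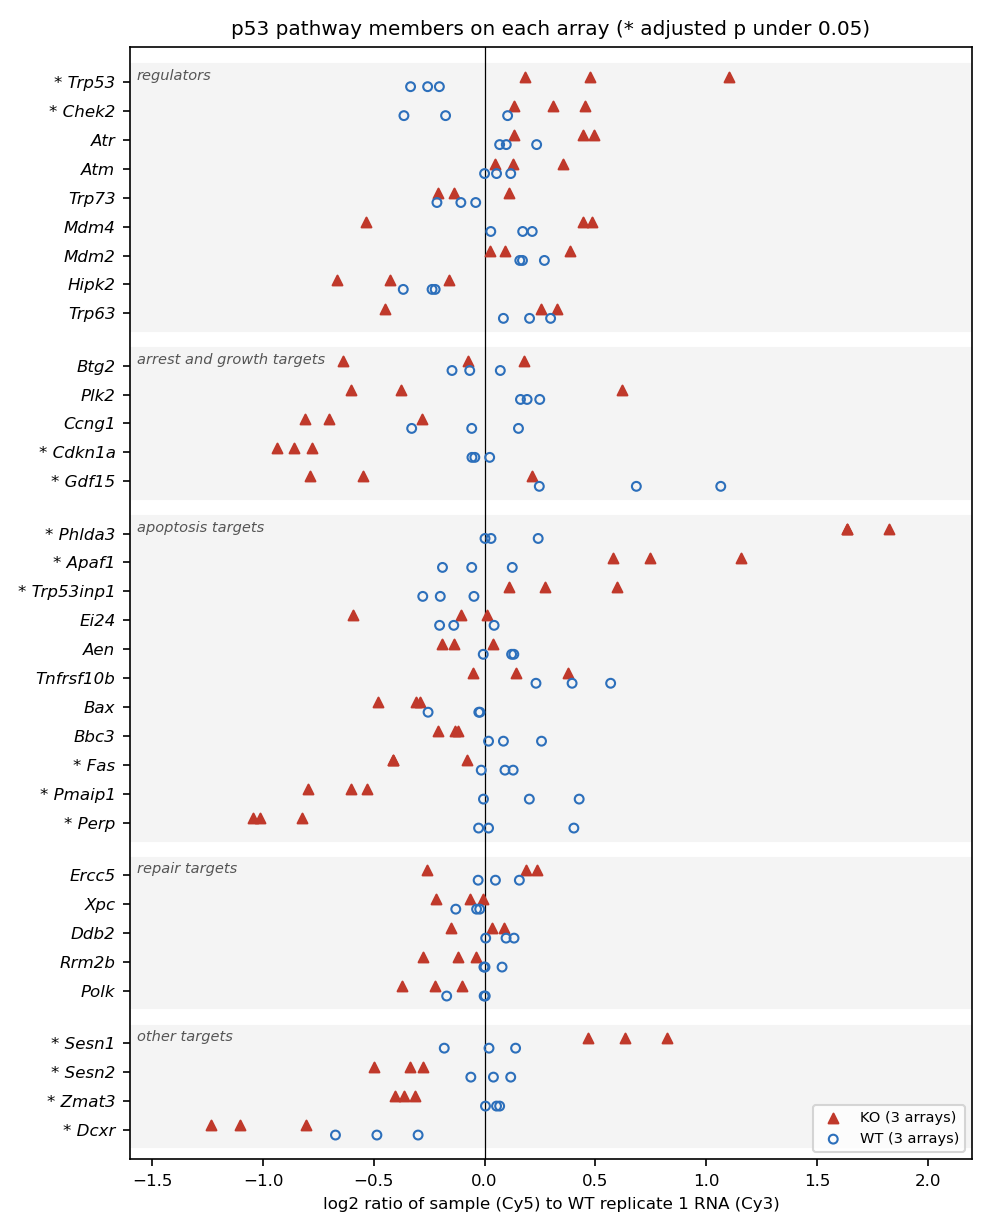
Log2 ratio of the sample RNA (Cy5) to the RNA of WT replicate 1 (Cy3) for the 34 tested members, 1 point per array, KO as filled triangles and WT as open circles, grouped by role; an asterisk marks an adjusted p under 0.05. The 3 KO points of Phlda3 lie between 1.63 and 1.83, right of all its WT points, and those of Cdkn1a between -0.94 and -0.78, left of all its WT points.

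p53 binds DNA as a tetramer at a pair of half-sites, each of 10 letters, known as the p53 consensus half-site, which reads the same on both strands. The 250 bases before each gene start (RefSeq, GRCm38.p6) were searched for it. Windows were held for 26 of the 35 members, and these genes have 36 windows in all. A half-site was found in 9 of the 36 member windows (25.0%), against 7.13% of all 32851 windows. Allowing at most 3 mismatches over the 20 letters of 2 half-sites with no spacer between them, 12 member windows (33.3%) held a match, against 5.32% of all windows. The windows below are shown because they set Cdkn1a, called lower in KO cells, beside Phlda3 and Sesn1, called higher, Ccng1, just outside the threshold, and the feedback inhibitor Mdm2. Capitals mark half-sites.
Cdkn1a (first start), chr17:29090729-29090978, plus strand: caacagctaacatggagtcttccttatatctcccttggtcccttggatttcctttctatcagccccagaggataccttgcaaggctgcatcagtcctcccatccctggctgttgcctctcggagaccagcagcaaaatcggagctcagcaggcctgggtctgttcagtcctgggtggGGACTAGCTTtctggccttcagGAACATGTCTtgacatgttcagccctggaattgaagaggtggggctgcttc
Cdkn1a (second start), chr17:29093519-29093768, plus strand: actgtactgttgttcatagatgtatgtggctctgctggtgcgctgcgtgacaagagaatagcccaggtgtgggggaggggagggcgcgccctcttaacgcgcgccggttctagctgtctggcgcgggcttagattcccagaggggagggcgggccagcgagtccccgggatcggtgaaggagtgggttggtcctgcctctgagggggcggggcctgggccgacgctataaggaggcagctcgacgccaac
Ccng1, chr11:40755287-40755536, minus strand: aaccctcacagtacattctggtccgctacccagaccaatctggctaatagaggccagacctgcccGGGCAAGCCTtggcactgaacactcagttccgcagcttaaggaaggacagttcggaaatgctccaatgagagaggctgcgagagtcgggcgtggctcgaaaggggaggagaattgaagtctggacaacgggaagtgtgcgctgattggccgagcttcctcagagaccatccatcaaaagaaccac
Mdm2, chr10:117710759-117711008, minus strand: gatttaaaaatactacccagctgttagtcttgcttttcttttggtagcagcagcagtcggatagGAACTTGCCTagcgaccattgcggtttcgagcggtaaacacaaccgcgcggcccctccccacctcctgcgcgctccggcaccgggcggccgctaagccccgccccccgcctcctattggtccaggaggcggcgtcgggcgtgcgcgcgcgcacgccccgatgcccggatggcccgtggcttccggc
Sesn1 (second start), chr10:41887189-41887438, plus strand: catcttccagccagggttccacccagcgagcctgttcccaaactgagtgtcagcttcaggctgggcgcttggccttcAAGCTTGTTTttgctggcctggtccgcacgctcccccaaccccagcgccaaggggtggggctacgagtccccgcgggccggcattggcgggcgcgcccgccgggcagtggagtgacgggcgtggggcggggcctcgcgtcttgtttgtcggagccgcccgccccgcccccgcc
Phlda3, chr1:135765835-135766084, plus strand: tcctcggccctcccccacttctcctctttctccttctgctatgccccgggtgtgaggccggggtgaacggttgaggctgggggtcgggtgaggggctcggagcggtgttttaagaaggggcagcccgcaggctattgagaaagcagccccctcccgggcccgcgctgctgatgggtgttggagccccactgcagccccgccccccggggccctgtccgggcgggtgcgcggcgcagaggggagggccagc
The first Cdkn1a window held 2 half-sites, GGACTAGCTT at 73 to 64 and GAACATGTCT at 51 to 42 bases before the start, and such a pair with at most 13 bases between its half-sites was found in 21 of all windows (0.0639%). The half-sites of Ccng1 (GGGCAAGCCT), Mdm2 (GAACTTGCCT) and Sesn1 (AAGCTTGTTT) lay 185 to 176, 186 to 177 and 173 to 164 bases before their starts. Over 20 letters with no spacer, the best match had 1 mismatch in the first Cdkn1a window and in that of Ccng1. Such a match, with at most 1 mismatch, was found in 25 of all windows (0.0761%). The best match had 3 mismatches in the second Sesn1 window, and 5 in those of Mdm2, Phlda3 and the second Cdkn1a start. The second Cdkn1a window and the Phlda3 window held no exact half-site, and neither did the window of the first Sesn1 start, which is not printed. The window of Trp53, also called higher and not printed, held GGACTTGCCC at 75 to 66 bases before its start. A match is a description of these letters, and sites farther away or inside a gene lie outside these windows. Which start the measured Cdkn1a and Sesn1 transcripts use was not determined.

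Among the regulators, the gene of p53 itself rose. Trp53 gave log2 ratios of 1.10, 0.18 and 0.47 in KO cells, against -0.26, -0.20 and -0.33 in WT cells. All KO values lay above all WT values, and KO replicate 1 was the highest by 0.77 over the mean of the other KO samples. The difference of 0.85 ± 0.21 (1.8-fold) had a limma adjusted p of 0.0165. The call was lost without WT replicate 3 (adjusted p = 0.064) and when the slide row was blocked (adjusted p = 0.132). Without KO replicate 1 the difference was 0.59 with an adjusted p of 0.00549.

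Of the kinases that act on p53, Chek2 passed the test and Atr, Atm and Hipk2 did not. Chek2, the checkpoint kinase that phosphorylates p53 after Atm is activated, had log2 ratios of 0.13, 0.45 and 0.31 in KO cells, against 0.10, -0.18 and -0.36 in WT cells. Its KO values lay above its WT values by a narrow margin, the lowest KO value being that of replicate 1 and the highest WT value also that of replicate 1. The difference of 0.44 ± 0.15 (1.36-fold) was past the threshold in limma with an adjusted p of 0.0475, and 7 of the 17 other settings ended that call. With the slide row as a block it was 0.19 (adjusted p = 0.521), and leaving out any one array other than the first replicates gave an adjusted p of 0.1 to 0.173. Atr, the kinase that senses stalled replication, had values of 0.45, 0.50 and 0.13 in KO cells, against 0.068, 0.23 and 0.098 in WT cells. The groups of Atr overlapped through KO replicate 3, and the difference of 0.23 ± 0.12 was not past the threshold (limma adjusted p = 0.199). Atm, the kinase that senses double-strand breaks, had values of 0.13, 0.36 and 0.047 in KO cells, against 0.12, 0.054 and 0 in WT cells, a difference of 0.12 ± 0.11 (limma adjusted p = 0.441). Hipk2, which phosphorylates p53 toward its apoptotic targets, had values of -0.67, -0.42 and -0.16 in KO cells, against -0.24, -0.37 and -0.22 in WT cells. Its groups overlapped, with a difference of -0.14 ± 0.14 (limma adjusted p = 0.465).

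Neither inhibitor of p53 changed by the test. Mdm2, the ubiquitin ligase that p53 itself induces, had log2 ratios of 0.39, 0.025 and 0.093 in KO cells, against 0.17, 0.27 and 0.16 in WT cells. Its difference was -0.032 ± 0.12 with a 95% interval of -0.31 to 0.25, and the groups overlapped (limma adjusted p = 0.856). Mdm4, which blocks the activation domain of p53, had values of -0.53, 0.44 and 0.48 in KO cells, against 0.028, 0.17 and 0.21 in WT cells. KO replicate 1 lay below every WT sample and the other KO samples above every one, so the difference of -0.007 ± 0.26 averages opposite values (limma adjusted p = 0.987). Without KO replicate 1 it was 0.33 with an adjusted p of 0.0361. Under median centring the differences were 0.29 for Mdm2 and 0.26 for Mdm4, and all 9 regulators were then positive. The median over all genes was 0.24 in that setting. Relative to it, Mdm2 lay at 0.052 and Mdm4 at 0.021, while Hipk2 (-0.089), Trp63 (-0.113) and Trp73 (-0.038) lay below it.

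The p53 relatives did not pass the test either. Trp63, known as the stem-cell factor of stratified epithelia, had values of -0.45, 0.33 and 0.25 in KO cells, against 0.085, 0.30 and 0.20 in WT cells, a difference of -0.15 ± 0.20 (limma adjusted p = 0.588). KO replicate 1 again lay below the other five arrays. Trp73, a p53 relative known from multiciliated cells, had values of 0.11, -0.14 and -0.21 in KO cells, against -0.040, -0.21 and -0.11 in WT cells, a difference of 0.041 ± 0.12 (limma adjusted p = 0.81). Only 1 of the 3 Trp73 probes passed the filter, and among WT arrays 1 of 3 had it well above background. For the 9 regulators together, 22.2% were called, against 35.3% of all genes, and their median difference was 0.041.

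Of the 5 arrest and growth targets, 2 fell, none rose, and all 5 differences were negative (median -0.52), except that 1 of the 5, Btg2, was positive under median centring. Btg2 stood at 0.17 in that setting, where the median over all genes was 0.24. The share called was 40%, near the 35.3% of all genes. Cdkn1a, which encodes the cyclin-dependent kinase inhibitor p21, had log2 ratios of -0.86, -0.94 and -0.78 in KO cells, against -0.044, -0.057 and 0.023 in WT cells. The KO samples lay close together and far below the WT samples. The difference of -0.83 ± 0.096 (1.78-fold lower in KO) had a limma adjusted p of 0.000565, and 0.0162 with the slide row as a block. Of the 17 other settings only median centring ended the call, with a difference of -0.58 (adjusted p = 0.0552). The second Cdkn1a probe never stood well above background, with a signal of at most 1.22 times the local background, and gave no test.

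Gdf15, a secreted stress cytokine of the TGF-beta family, had the largest fall among these 5, with log2 ratios of -0.79, -0.55 and 0.21 in KO cells, against 0.25, 1.07 and 0.69 in WT cells. Every KO value lay below every WT value, but KO replicate 3 was close to WT replicate 1 and the WT samples were spread widely. The difference was -1.04 ± 0.29 (2.06-fold lower in KO, limma adjusted p = 0.024). The call was lost without KO replicate 2, WT replicate 2 or WT replicate 3 (adjusted p = 0.0775 to 0.0795), and blocking on the slide row gave -0.62 (adjusted p = 0.311).

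Ccng1, the gene of cyclin G1, a p53 target in most tissues, lay just outside the threshold. Its values were -0.28, -0.81 and -0.70 in KO cells, against 0.15, -0.33 and -0.058 in WT cells, and the groups overlapped because KO replicate 1 lay above WT replicate 2. The difference of -0.52 ± 0.17 had a limma adjusted p of 0.051. Without KO replicate 1 it was -0.68 with an adjusted p of 0.00811, and without WT replicate 2 the adjusted p was 0.038. Plk2, a kinase of the centriole cycle, had values of 0.62, -0.38 and -0.60 in KO cells, against 0.16, 0.19 and 0.25 in WT cells. KO replicate 1 was the highest of the 6 arrays and the other KO samples the lowest, so the difference of -0.32 ± 0.28 had a limma adjusted p of 0.408. Without KO replicate 1 it was -0.69 with an adjusted p of 0.00196. Btg2, an antiproliferative cofactor of mRNA deadenylation, had values of 0.18, -0.074 and -0.64 in KO cells, against -0.15, -0.067 and 0.071 in WT cells and a difference of -0.13 ± 0.20 (limma adjusted p = 0.639). Its KO samples spanned a wider range than its WT samples on both sides.

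Apoptosis targets moved in both directions: of 11 tested, 3 rose, 3 fell and 5 missed the threshold (54.5% called, against 35.3% of all genes, median -0.24). The largest difference of all members was that of Phlda3, whose product binds membrane phosphoinositides and in that way restrains the survival kinase Akt. Phlda3 had log2 ratios of 1.83, 1.63 and 1.64 in KO cells, against 0.029, 0.24 and 0.002 in WT cells. The KO samples lay close together and far above the WT samples. The difference of 1.61 ± 0.11 (3.05-fold) had a limma adjusted p of 0.000185 and 0.00636 with the slide row as a block. The call held in all 17 other settings.

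Apaf1, the scaffold on which cytochrome c assembles the apoptosome, rose as well. Its values were 1.16, 0.75 and 0.58 in KO cells, against -0.058, 0.12 and -0.19 in WT cells, and the groups stood well apart. The difference of 0.87 ± 0.16 (1.83-fold) had a limma adjusted p of 0.00488, and 0.0584 with the slide row as a block. Trp53inp1, a nuclear stress protein that promotes p53 phosphorylation, had values of 0.60, 0.27 and 0.11 in KO cells, against -0.048, -0.28 and -0.20 in WT cells on its brighter probe. The KO values lay above the WT values, with a difference of 0.50 ± 0.14 (1.42-fold, limma adjusted p = 0.0277), a call lost without KO replicate 2, WT replicate 2 or WT replicate 3 (adjusted p = 0.0603 to 0.0939). It was also lost when the slide row was blocked (0.38, adjusted p = 0.28) and with Cy5 alone (adjusted p = 0.122). Its second probe went the opposite way, with values of -0.22, -0.23 and -0.067 in KO cells, against 0.092, 0.14 and 0.14 in WT cells. On that probe every KO value lay below every WT value, a difference of -0.30 ± 0.098 with an adjusted p of 0.0596 in the limma fit over all passing probes. With the probes averaged, the difference of Trp53inp1 was 0.10 (adjusted p = 0.433). The probes thus gave opposite directions, and what each probe targets beyond its accession was not analysed here.

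The apoptosis targets that fell were Perp, Pmaip1 and Fas. Perp, a membrane protein of desmosomes in epithelia, had log2 ratios of -1.04, -1.01 and -0.82 in KO cells, against 0.018, 0.40 and -0.027 in WT cells. Its groups were separated by more than the spread of either one. The difference of -1.09 ± 0.14 (2.13-fold lower in KO) had a limma adjusted p of 9e-04 and kept its call in all 17 other settings. Pmaip1, which encodes the BH3-only protein Noxa that neutralises Mcl1, had values of -0.60, -0.80 and -0.53 in KO cells, against 0.20, 0.43 and -0.005 in WT cells. The highest KO value lay well below the lowest WT value, and the difference was -0.85 ± 0.14 (1.81-fold lower in KO, limma adjusted p = 0.00246). Median centring ended that call (adjusted p = 0.052), and no other setting did. Fas, the death receptor, had values of -0.079, -0.41 and -0.41 in KO cells, against 0.13, 0.092 and -0.015 in WT cells. KO replicate 1 came close to WT replicate 3, and the difference of -0.37 ± 0.12 (1.29-fold lower in KO) had a limma adjusted p of 0.0476. For Fas 9 of the 17 other settings ended the call, and leaving out any one array other than KO replicate 1 gave an adjusted p of 0.0934 to 0.14.

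For 5 apoptosis targets the difference was negative but not past the threshold, and under median centring all 5 were slightly positive. All 5 then lay below the median over all genes, which was 0.24 in that setting. Bax, a pore-forming Bcl2 relative of the mitochondrial membrane, had values of -0.31, -0.29 and -0.48 in KO cells, against -0.26, -0.021 and -0.026 in WT cells. Bbc3, which encodes the BH3-only protein Puma, had values of -0.13, -0.12 and -0.21 in KO cells, against 0.085, 0.26 and 0.018 in WT cells. In both genes every KO value lay below every WT value, with differences of -0.26 ± 0.11 for Bax and -0.27 ± 0.10 for Bbc3 (limma adjusted p = 0.108 and 0.0738). Tnfrsf10b, the mouse TRAIL death receptor, had values of -0.052, 0.14 and 0.38 in KO cells, against 0.40, 0.57 and 0.23 in WT cells, a difference of -0.24 ± 0.14 (limma adjusted p = 0.223). Aen, an apoptosis-enhancing nuclease, had values of -0.19, 0.038 and -0.14 in KO cells, against -0.006, 0.13 and 0.12 in WT cells, a difference of -0.18 ± 0.11 (limma adjusted p = 0.224). The groups of Tnfrsf10b and Aen overlapped, as did those of Ei24, an endoplasmic reticulum protein. Ei24 had values of -0.59, 0.011 and -0.11 in KO cells, against 0.043, -0.14 and -0.20 in WT cells, a difference of -0.13 ± 0.17 (limma adjusted p = 0.574).

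**Figure D2:**
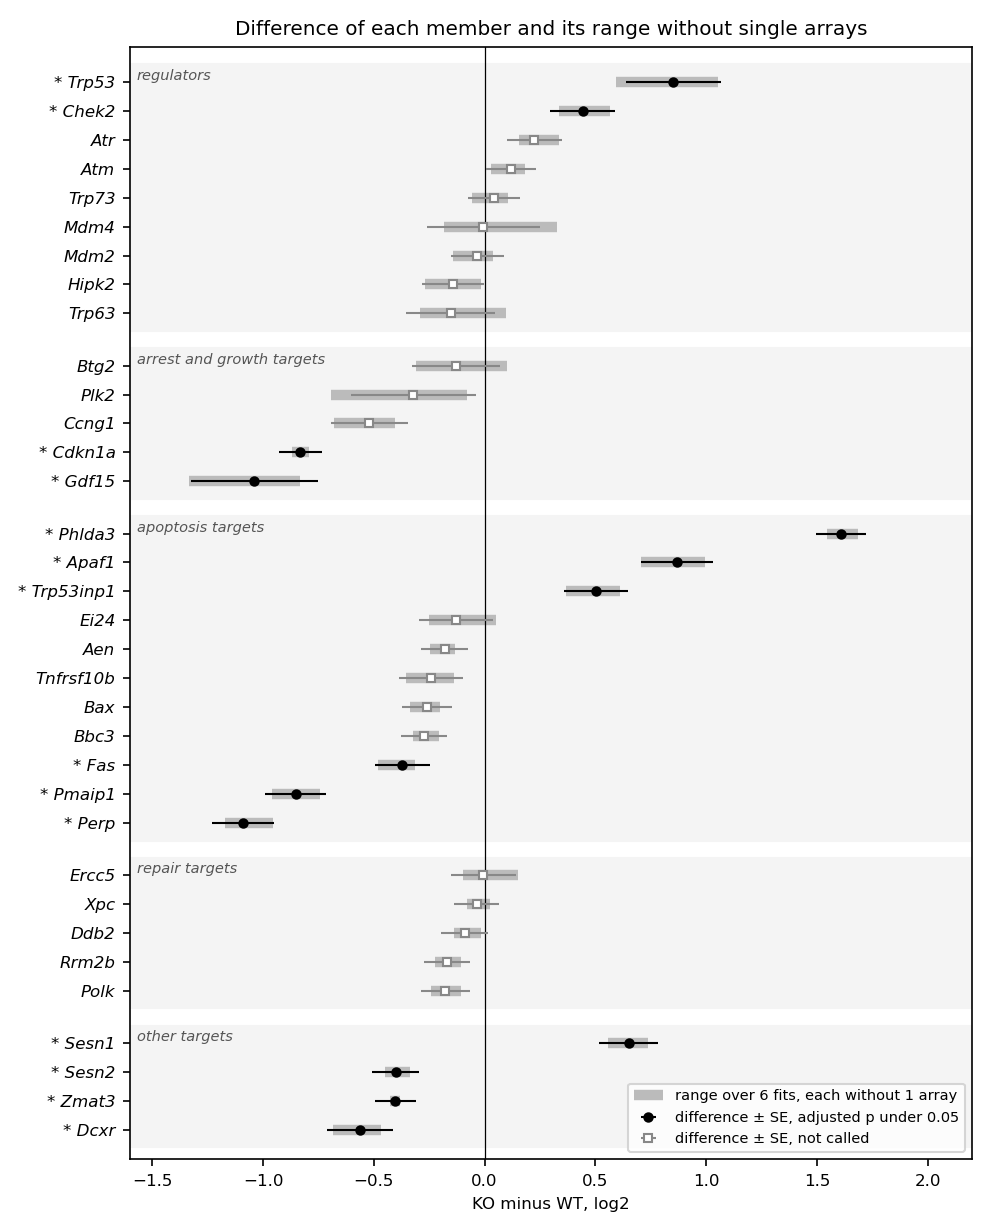
KO minus WT difference of log2 ratios for the 34 tested members, grouped by role, with thin bars for the standard error from 3 KO and 3 WT samples and grey bands for the range over 6 fits that each leave out 1 array. Filled circles mark an adjusted p under 0.05 and open squares the others. Phlda3 at 1.61 and Perp at -1.09 are the ends of the range.

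None of the 5 repair targets changed by the test, at an adjusted p or at an unadjusted p of 0.05. Of all genes, 35.3% passed the adjusted threshold, and 3068 higher and 3698 lower of 14755 passed the unadjusted one. The differences of the 5 ran from -0.18 to -0.005 (median -0.089). Under median centring, where the median over all genes was 0.24, 4 of the 5 were positive, and with Cy5 alone 2 of the 5 were. Ddb2, which recognises ultraviolet lesions in chromatin, had log2 ratios of 0.032, -0.15 and 0.088 in KO cells, against 0.13, 0.097 and 0.005 in WT cells. Xpc, which recognises helix distortion at the start of nucleotide excision repair, had values of -0.007, -0.22 and -0.068 in KO cells, against -0.022, -0.13 and -0.036 in WT cells. The groups of both overlapped, and the 95% intervals of the differences were -0.33 to 0.16 for Ddb2 and -0.27 to 0.20 for Xpc. Ercc5, the endonuclease that cuts on the 3′ side of a lesion, had values of -0.26, 0.24 and 0.18 in KO cells, against -0.029, 0.049 and 0.16 in WT cells, an interval of -0.35 to 0.34. Polk, a translesion polymerase, had values of -0.23, -0.37 and -0.10 in KO cells, against -0.002, -0.17 and 0.003 in WT cells, an interval of -0.43 to 0.081. KO replicate 1 of Ercc5 was the lowest of the 6 arrays, and Polk overlapped through KO replicate 3. Rrm2b, the p53-induced small subunit of ribonucleotide reductase, had values of -0.040, -0.12 and -0.28 in KO cells, against -0.003, 0.002 and 0.079 in WT cells. Every KO value of Rrm2b lay below every WT value, as in 28.2% of all genes. The probe was dim, above background on 2 of 3 KO and 2 of 3 WT arrays. Its difference of -0.17 ± 0.10 had an interval of -0.41 to 0.067 (limma adjusted p = 0.234).

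The other 4 targets, genes of antioxidant defence, mTOR restraint, RNA binding and metabolism, all passed the test, with 1 up and 3 down, in a comparison where 35.3% of all genes passed it. The sestrins, which restrain mTORC1 under stress, split. Sesn1 had log2 ratios of 0.82, 0.47 and 0.63 in KO cells, against 0.14, 0.020 and -0.18 in WT cells, a difference of 0.65 ± 0.13 (1.57-fold, limma adjusted p = 0.00693). Sesn2 had values of -0.28, -0.50 and -0.34 in KO cells, against -0.062, 0.040 and 0.12 in WT cells, a difference of -0.40 ± 0.11 (1.32-fold lower in KO, limma adjusted p = 0.0211). The groups of both sestrins stood apart. The call of Sesn1 held without any single array and was lost when the slide row was blocked (adjusted p = 0.125), and the call of Sesn2 was lost in 6 other settings, among them those without KO replicate 2, WT replicate 2 or WT replicate 3 (adjusted p = 0.0557 to 0.0935). Zmat3, an RNA-binding zinc finger protein, had values of -0.36, -0.31 and -0.41 in KO cells, against 0.068, 0.054 and 0.004 in WT cells, a tight separation with a difference of -0.40 ± 0.092 (1.32-fold lower in KO, limma adjusted p = 0.011). Dcxr, a reductase of dicarbonyls and xylulose, had values of -0.81, -1.23 and -1.10 in KO cells, against -0.30, -0.67 and -0.49 in WT cells, a difference of -0.56 ± 0.15 (1.48-fold lower in KO, limma adjusted p = 0.0199). With the slide row as a block the adjusted p was 0.0944 for Zmat3 and 0.0515 for Dcxr. Leaving out any one array other than KO replicate 1 and WT replicate 2 ended the call of Dcxr (adjusted p = 0.0561 to 0.0716), and under median centring Fas, Sesn2, Zmat3 and Dcxr all lost theirs.

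Read probe by probe, 5 of the 41 passing member probes rose and 7 fell (29.3%), against 25.3% of all 29811 passing probes, in a fit adjusted over all of those probes. The calls of Chek2 and Fas lay outside the threshold in that larger family. Of the members, 7 had more than 1 passing probe, and 2 of them, Trp53inp1 and Atm, had probes of opposite sign. The second Atm probe gave -0.61, 0.24 and 0.21 in KO cells, against 0.032, 0.095 and 0.25 in WT cells, where KO replicate 1 stood apart from the other arrays, a difference of -0.18 ± 0.22 against 0.12 ± 0.11 on the brighter probe. The second Mdm4 probe gave a difference of -0.30 ± 0.15 and that of Trp63 -0.34 ± 0.24, where the values include WT replicate 2 alone at 0.91. The second probes of Hipk2, Aen and Polk gave -0.19 ± 0.14, -0.22 ± 0.12 and -0.039 ± 0.13, on the same side of 0 as the brighter ones.

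The KO samples did not all behave alike, over all genes as well as over the members. The array of KO replicate 1 also had the most outlier spots left out, 403 against 196 to 246 on the other arrays. The part of this in the values below was not tested. KO replicate 1 differed from the mean of the other KO samples by a median of 0.28 over the members, against 0.20 over all genes, and by more than 0.5 in 7 of 34 members (20.6%), against 13.4% of all genes. KO replicates 2 and 3 differed from each other by a median of 0.16 over the members, against 0.12 over all genes. In KO replicate 1, Plk2 stood 1.11, Trp53 0.77 and Btg2 0.54 above the other KO samples. On the other side, the distance was -0.996 for Mdm4, -0.74 for Trp63, -0.62 for Gdf15 and -0.55 for Ei24. Without KO replicate 1, 17 members were called in place of 14, and leaving out any other single array gave 7 to 12. The calls over all genes moved the same way. They were 5715 in place of 5214 without KO replicate 1, and 3243 to 4579 without any other array. Of the 14 called members, 7 kept their call without any single array: Cdkn1a, Pmaip1, Apaf1, Perp, Phlda3, Sesn1 and Zmat3. The WT samples of Gdf15 and Perp had standard deviations of 0.41 and 0.24 (n = 3).

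**Figure D3:**
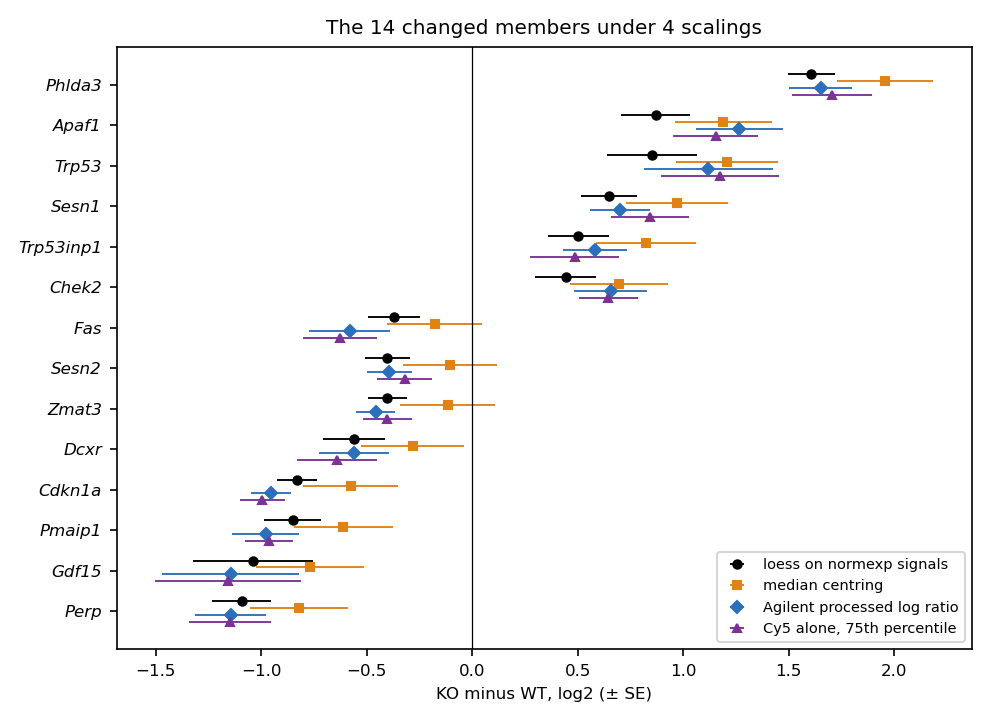
KO minus WT difference of the 14 called members under 4 scalings of the same arrays: loess, median centring, the Agilent processed log ratio and Cy5 alone at the 75th percentile. All 14 keep their sign under all 4, while median centring moves the members up together with the median of all genes, which is 0.24 there and -0.019 under loess.

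The wider pathway was read from further gene lists, which were chosen with earlier results of these data known. Of 19 damage-signalling genes tested, 9 rose, none fell and the median difference was 0.34, with 47.4% called, against 35.3% of all genes and 15.3% called higher. At an unadjusted p of 0.05, 10 of them were higher and 0 lower in limma, against 3068 and 3698 of all 14755 genes. Rad1, a subunit of the checkpoint clamp that is loaded at damaged DNA, had the smallest p, with log2 ratios of 0.92, 1.47 and 1.25 in KO cells, against 0.13, 0.19 and 0.025 in WT cells. The groups of Rad1 did not overlap, and the difference was 1.10 ± 0.15 (2.14-fold, limma adjusted p = 0.00114). Rpa2, a subunit of the single-strand DNA-binding protein, Topbp1, which activates Atr, and Clspn, the adaptor between Atr and Chek1, rose by 0.80 ± 0.13, 0.67 ± 0.12 and 0.45 ± 0.093. Their limma adjusted p-values were 0.00218, 0.00385 and 0.00735. Without WT replicate 3 the list had 6 genes called higher, and with the slide row as a block 2. The median was positive under all 4 scalings.

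Of 25 modifiers and cofactors of p53 tested, 3 rose and 2 fell (20% called, below the 35.3% of all genes, median -0.015). Ppp1r13b and Trp53bp2, which encode the ASPP proteins that direct p53 toward apoptotic genes, both fell, by differences of -0.55 ± 0.14 and -0.47 ± 0.11 (limma adjusted p = 0.0158 and 0.0125). Sirt1, which deacetylates p53, and Csnk1a1, a casein kinase that works with Mdm4, rose by 0.49 ± 0.12 and 0.53 ± 0.15 (limma adjusted p = 0.0172 and 0.0246). The probes of Csnk1a1 disagreed, and their mean gave 0.069 (adjusted p = 0.818). Under median centring 5 of the list were called higher and none lower, and none of the list was called without WT replicate 3 or with the slide row as a block. Without WT replicate 3 the adjusted p was 0.056 for Trp53bp2, 0.0684 for Ppp1r13b, 0.0778 for Sirt1 and 0.0998 for Csnk1a1.

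Further p53 targets moved both ways, like the members: of 36 tested, 8 rose and 9 fell (47.2% called, against 35.3% of all genes, of which 15.3% higher and 20% lower, with a list median of -0.25). Cyfip2, a p53-inducible subunit of the actin-regulating WAVE complex, had the largest fall, with log2 ratios of -1.67, -1.80 and -1.76 in KO cells, against -0.18, -0.36 and 0.23 in WT cells. Its groups lay far apart, and the difference was -1.64 ± 0.15 (3.12-fold lower in KO, limma adjusted p = 0.000278). Cd82, a tetraspanin, fell with a difference of -1.19 ± 0.14 (limma adjusted p = 0.000546). Igfbp3, a secreted binder of insulin-like growth factors, and Psrc1, a microtubule-associated protein, rose by 0.82 ± 0.11 and 0.62 ± 0.091 (limma adjusted p = 0.00119 and 0.00163). The list's median was 0.030 under median centring, where that of all genes was 0.24. With the slide row as a block, 3 of the list were called higher and 5 lower, without WT replicate 3 the counts were 4 and 6, and without KO replicate 1 they were 8 and 14.

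Of 18 Bcl2 family members, caspases and their partners, 4 fell, none rose and the median difference was 0 (22.2% called, against 35.3% of all genes and 20% called lower). In limma at an unadjusted p of 0.05, 2 were higher and 5 lower, against 3068 and 3698 of all 14755 genes. Cycs, which encodes the cytochrome c that activates Apaf1, had log2 ratios of -1.71, -1.79 and -1.79 in KO cells, against -0.20, -0.69 and -0.12 in WT cells. Its KO values lay far below its WT values, a difference of -1.42 ± 0.16 (2.68-fold lower in KO, limma adjusted p = 0.000477), opposite to Apaf1. Bak1, a pore-forming relative of Bax, and Bcl2l1 and Mcl1, which encode survival proteins, had differences of -0.60 ± 0.13, -0.49 ± 0.11 and -0.29 ± 0.095 (limma adjusted p = 0.00914, 0.00914 and 0.0478). Under median centring the difference of Mcl1 was 0.084, against a median of 0.24 over all genes, and the list had 1 gene called in each direction. The call of Mcl1 held without KO replicate 1 and was lost without each other array (adjusted p = 0.0844 to 0.138), and without KO replicate 1 the list had 6 genes called lower. With the slide row as a block 1 gene of the list was called lower, and the adjusted p was 0.0745 for Bak1, 0.0892 for Bcl2l1 and 0.205 for Mcl1.

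Cell-cycle genes that p21 represses through the DREAM complex were higher in KO cells: of 19 tested, 14 rose, none fell and all 19 differences were positive, from 0.11 to 0.85 (median 0.47, 73.7% called, against 35.3% of all genes). At an unadjusted p of 0.05, 16 were higher and 0 lower in limma, against 3068 and 3698 of all 14755 genes. The array medians of the list were 0.54, 0.47 and 0.55 in KO samples, against 0.027, 0.052 and 0.068 in WT samples. Ccna2, the cyclin of S and G2 phase, had log2 ratios of 0.93, 0.67 and 0.80 in KO cells, against 0.027, -0.063 and 0.051 in WT cells, a difference of 0.79 ± 0.11 (1.73-fold, limma adjusted p = 0.0011). Top2a, the topoisomerase of chromosome condensation, Bub1, a spindle checkpoint kinase, and Cenpa, the centromeric histone, rose by 0.85 ± 0.12, 0.69 ± 0.11 and 0.68 ± 0.11. Their limma adjusted p-values were 0.00145, 0.00217 and 0.00242. Leaving out any one WT replicate gave 9 genes of the list called, leaving out KO replicate 1 gave 15, and the slide row as a block gave 6. This list too was chosen with earlier results of these data known, so its counts are a description only. Nephron progenitor and stroma markers were higher in the same KO samples. Neither their part nor that of p21 in these values was tested.

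Aqp2, the vasopressin-regulated water channel of principal cells and a renal gene described as responsive to p53, fell. It had log2 ratios of -1.92, -2.01 and -1.81 in KO cells, against -0.38, -0.25 and -0.12 in WT cells, a difference of -1.67 ± 0.11 (3.17-fold lower in KO, limma adjusted p = 0.000185). The KO samples lay far below the WT samples. Aqp2 is also one of the 15 collecting duct markers, all of which were lower.

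**Figure D4:**
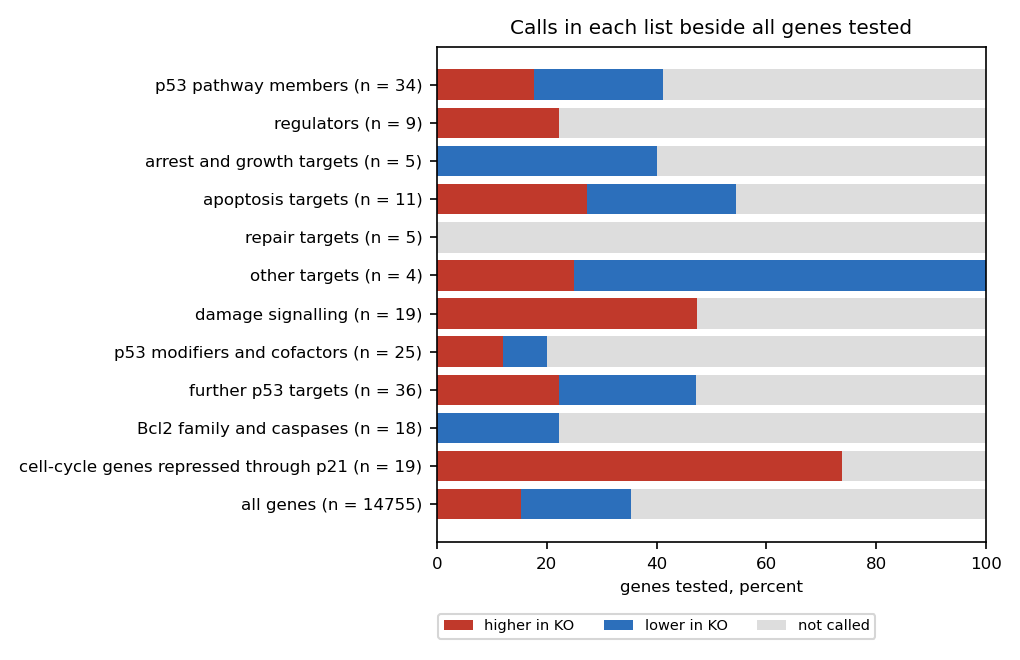
Percent of the tested genes of each list that were higher in KO, lower in KO or not called at an adjusted p of 0.05, for the members, their roles, the further pathway lists and all 14755 genes. The p21-repressed cell-cycle list (14 of 19) and damage signalling (9 of 19) hold higher calls and no lower ones, and all genes hold 35.3% called in both directions together. Members and lists were chosen with earlier results of these data known.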

How the data were processed

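RNA of 3 KO and 3 WT samples was measured on 6 Agilent 2-colour arrays of 1 slide. The deposited scanner files gave, for each channel, the median intensity of every spot and of its local background, and a log10 ratio of red over green, per the file headers written by Feature Extraction 10.7.3.1 (the submitters' processing notes name 6.1). The series matrix holds the authors' log10 ratios of the same arrays, equal to the scanner's up to rounding, with column medians of 0. Background was corrected with normexp (offset 50) and ratios were normalised by loess within each array in limma 3.58.1 (R 4.3.3). Between 196 and 403 outlier spots per array were left out, and none was saturated. Spots well above background in Cy5 made up 56.6%, 57.5% and 56.6% on KO arrays, against 52.7%, 49.8% and 50.6% on WT arrays. The log2 Cy5 signal at the 75th percentile was 9.61, 9.54 and 9.18 on KO arrays, against 9.09, 8.48 and 8.75 on WT arrays. Array brightness and genotype thus cannot be told apart, and the part of brightness in the differences was not tested. Accessions were matched to RefSeq (GRCm38.p6): 27509 of 55681 probes, 20887 genes. The filter, test and threshold are given above. The limma fit had 4 residual and 3.95 prior degrees of freedom, and was tested on simulated data. Named genes were all members and, of each further list, up to 4 called genes with the smallest p. Members and lists were chosen with earlier results of these data known. Alternatives were other scalings, filters, probe rules, blocks, weights and left-out arrays. The same-number check of replicates stands in the closing section. One further gene of the lists is not reported here.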

Additional observations from a re-analysis of the deposited data

How the results depend on the processing

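Under 17 other settings none of the 14 called members changed sign, Phlda3 and Perp kept their call in each of these settings, and 7 kept it without any single array. Centring arrays on their median gave 1036 genes lower in place of 2952, and 2 members lower in place of 8. It turned the sign of Mdm2 at 0.29, Mdm4 at 0.26, Hipk2 at 0.15, Trp63 at 0.13, Btg2 at 0.17, Bax at 0.037, Bbc3 at 0.014, Tnfrsf10b at 0.043, Aen at 0.17, Ei24 at 0.17, Ddb2 at 0.20, Xpc at 0.26, Polk at 0.040, Ercc5 at 0.27 and Mcl1 at 0.084. Of these genes, only Mcl1 had been called. The median over all genes was 0.24 in that setting. Mdm2, Mdm4, Xpc and Ercc5 lay above that median and the others of these genes below it. The slide row as a block gave 730 genes higher and 1474 lower, and 1 member higher and 3 lower, and turned the sign of Mdm4 at 0.10, Trp73 at -0.040 and Ercc5 at 0.083. With single arrays left out, members called higher ran from 3 to 7 and lower from 4 to 10, and all genes called higher from 1269 to 2373 and lower from 1974 to 3342. The lowest number of members, 7, came without WT replicate 3, and 8 were called without KO replicate 2. In the same fits the differences that changed sign ranged as follows: Mdm4 -0.18 to 0.33, Trp63 -0.29 to 0.095, Trp73 -0.055 to 0.11, Ei24 -0.25 to 0.052, Ercc5 -0.096 to 0.15, Mdm2 -0.14 to 0.039, Xpc -0.081 to 0.025, Btg2 -0.31 to 0.10. The Agilent processed log ratio and the deposited series matrix, which are the same values up to rounding, turned the sign of Mdm2 at 0.068 and Mdm4 at 0.011. Cy5 alone turned that of Xpc at 0.002 and Rrm2b at 0.035, the mean of probes turned that of Atm at -0.029, and array weights turned that of Mdm4 at 0.23, Trp63 at 0.047, Trp73 at -0.040, Ei24 at 0.027 and Ercc5 at 0.099. The cause of these changes was not tested. Quantile normalization between arrays leaves ratios unchanged by construction. Replicates with the same number correlated in their deviations from the group means with r of 0.135, 0.083 and 0.201, so the numbers were not taken to pair the samples. The replicate block gave 5130 genes and 14 members called in place of 5214 and 14, with Ccng1 gained (adjusted p = 0.0119) and Chek2 lost. The 3 samples a group limit the precision, and values of dim probes such as Rrm2b and Trp73 are limited by their signal over background.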
